A study of Castanea mollissima with 2 samples.

Results

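The 135 most abundant transcripts of chestnut catkins that differed by less than 8-fold between a short-catkin mutant and a normal cultivar are described here. They were taken from 92000 gene entries of Chinese chestnut (Castanea mollissima). An entry was a candidate where its TPM (an abundance corrected for transcript length and scaled to the same sum in every library) was among the 100 highest of either library, which held for 148 entries. The 13 candidates whose unscaled expected counts (reads estimated per entry, plus 0.5) differed by 8-fold or more were left out. The members were thus chosen by the TPM and the count ratio of these same libraries, and their levels and ratios are given as a description, without a test.

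The mutant group was total RNA from catkins of the cultivar Heishanzhai7, labelled as shorter catkins, and the normal group was the same material from the cultivar Yanshanhong. Both carry the genotype label recessive, and no age, stage, treatment or pooling of trees is given in the labels. The extraction text of both speaks of berries, while their tissue label is catkins. The entries carry no gene names, so the tissue could not be checked against marker genes. Each group held 1 library, of 19624934 counts in the mutant and 23089247 in the normal. Variation between libraries of a group could therefore not be estimated, and cultivar and catkin type cannot be told apart.

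Chestnut catkins are spikes that carry mainly male flowers, and their tissue includes the axis, the perianth and anthers with developing pollen. In most plant organs a small number of genes supplies a large part of the messenger RNA, and this set often differs with the cell types an organ holds. Sequencing measures shares of a library, so a few very abundant transcripts lower the share left to all others. Fewer cells of a type and less RNA per cell cannot be told apart in whole catkins.

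A smaller share of the mutant reads came from the members, and as a share of all counts the difference lay in a pair of members. All 135 together held 19.9% of the expected counts in mutant catkins (exact binomial 95% interval 19.84 to 19.88%) and 26.2% in normal catkins (26.23 to 26.26%). A pair of members that share their component number, of 2467 and 3856 bases, held 5.02% of the mutant counts and 11.5% of the normal counts. The other 133 members held 14.84% of the counts in mutant catkins (14.82 to 14.86%) and 14.75% in normal catkins (14.74 to 14.76%). This near-equality holds for the members kept by the 8-fold limit and is partly set by it. The totals include the pair, so a smaller pair leaves a larger share to all other entries. Member by member, the median log2 ratio of mutant over normal was -0.31 after the scaling given below, and -0.083 with scaling to total counts. With the 13 left-out candidates added, the 146 entries other than the pair held 15.6% of the counts in mutant catkins and 16.9% in normal catkins. These intervals cover counting error only.

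**Figure D1:**
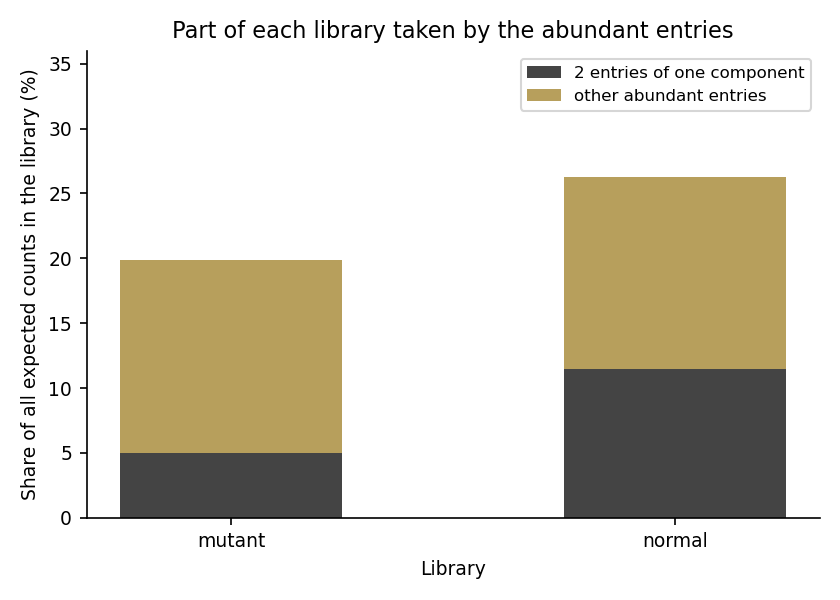
Share of all expected counts in each library (%, vertical axis) taken by the members, with the pair of entries from a single component in grey and the other 133 members in ochre, 1 library per bar. The ochre parts, from which the 8-fold limit removed the most different entries, are of nearly equal height, at 14.84% in the mutant and 14.75% in normal catkins, and the grey parts are 5.02% and 11.5%.

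Summed by TPM, which weights short transcripts more, the members held 20.1% of the mutant total and 24.5% of the normal total. Without the pair these shares were 17.7% in the mutant and 19.2% in normal catkins. Leaving out the 10 members under 500 bases as well gave 16.2% in the mutant and 15.7% in normal catkins for the remaining 123. Among the members kept by the 8-fold limit, the lower TPM sum in mutant catkins thus lay in the pair and the shortest members. The limit partly sets this, as it removed candidates of 341, 464 and 342 bases that had 1911, 1734 and 1645 TPM in mutant catkins. These were under 1 TPM in normal catkins. The class under 500 bases was chosen with earlier results of these data known.

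The members of the pair are the only entries of their component in the tables, and they kept almost the same proportion to each other. The shorter had 14625 TPM in the mutant and 33236 TPM in normal catkins, and ranked 1 in both. The longer had 8856 TPM in the mutant and 19654 TPM in normal catkins, and ranked 3 in both. The TPM of the shorter was 1.65 times that of the longer in the mutant and 1.69 times in normal catkins. Both were lower in mutant catkins, by 2.71-fold for the shorter and 2.65-fold for the longer after TMM scaling of counts (a trimmed mean of log ratios is set to 0, so that the bulk of entries is equal between libraries). All ratios below are on this scale unless stated.

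The remaining members of the top ranks exchanged places. Ranks 1 to 10 in mutant catkins were all members, as were 9 of the first 10 in normal catkins, and 5 entries stood in both. Besides the pair, these were an entry of 1169 bases, an entry of 646 bases and an entry of 904 bases. The entry of 1169 bases had 9144 TPM in mutant catkins, where it ranked second, and 4725 TPM in normal catkins, where it ranked eighth, a 1.62-fold higher scaled count in mutant catkins. The entry of 646 bases had 7415 TPM in the mutant and 10553 TPM in normal catkins and was 1.71-fold lower. The entry of 904 bases, with 8 transcripts, had 5237 TPM in the mutant and 4222 TPM in normal catkins, and its scaled counts were 1.05-fold higher in mutant catkins. These 3 entries stayed within 2-fold, in both directions.

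Of the 5 members that held a top-10 rank in mutant catkins only, 4 were higher there on scaled counts and 1 was lower. Choosing members by a rank held in mutant catkins only favours the higher direction. An entry of 1503 bases had 7199 TPM in mutant catkins, at rank 5, and 2462 TPM in normal catkins, at rank 21, a 2.44-fold difference. An entry of 651 bases had 7190 TPM in mutant catkins, at rank 6, and 2753 TPM in normal catkins, at rank 18, a 2.15-fold difference. These were the only members of the mutant top 10 to be at least 2-fold higher. Entries of 845 and 882 bases, with 11 transcripts each, had 4901 and 3933 TPM in mutant catkins and 3875 and 2948 TPM in normal catkins, and were 1.08-fold and 1.12-fold higher on scaled counts. The entry at rank 10 in mutant catkins, of 636 bases, had 3055 TPM there and 3965 TPM in normal catkins, at rank 12, and was 1.56-fold lower.

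Members that held a top-10 rank in normal catkins only were all lower in mutant catkins, a direction largely fixed by that choice. Of these, 3 of the 4 were under 500 bases. An entry of 441 bases had 2547 TPM in mutant catkins, at rank 17, and 12669 TPM in normal catkins, at rank 4, a 6.34-fold lower scaled count. An entry of 729 bases had 1226 TPM in mutant catkins, at rank 43, and 5583 TPM in normal catkins, at rank 7, and was 5.48-fold lower. All 4 thus remained within the first 50 ranks in mutant catkins. The entry of 223 bases had 2571 TPM in the mutant and 6907 TPM in normal catkins and was 3.37-fold lower. The entry of 456 bases had 1929 TPM in the mutant and 4652 TPM in normal catkins and was 2.92-fold lower.

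**Figure D2:**
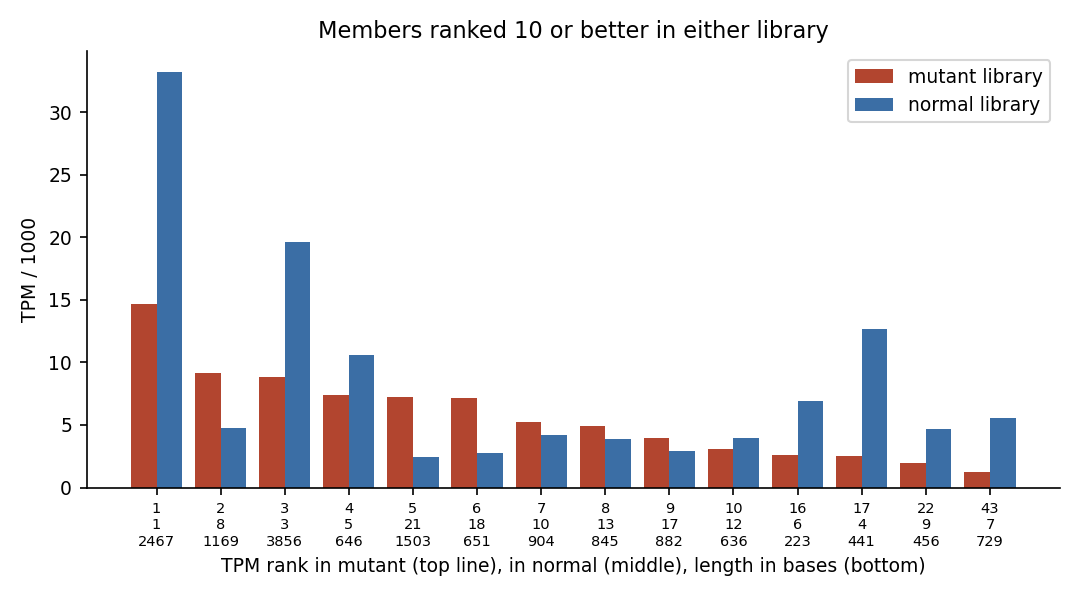
TPM (vertical axis, divided by 1000) of the 14 members ranked 10 or better in either library, mutant bar left of normal bar, ordered by rank in mutant catkins, with ranks and length in bases under each pair of bars. The 4 groups of bars at the right end, with normal ranks 6, 4, 9 and 7, are all lower in mutant catkins, as are the entries that ranked 1 and 3 in both. Those 4 ranked 10 or better in normal catkins only, which largely fixes their direction.

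The members' abundance was spread more evenly in mutant catkins. Their levels ran from 170 TPM over a median of 966 TPM to 14625 TPM in mutant catkins, and from 228 TPM over a median of 1010 TPM to 33236 TPM in normal catkins. The 10 most abundant members held 35.6% of the members' TPM in the mutant and 43.4% in normal catkins. It took 23 members to reach 50% of that TPM in mutant catkins and 15 in normal catkins. Without the pair, the 10 most abundant held 30.3% in the mutant and 31.7% in normal catkins. Among the members kept by the 8-fold limit, most of the difference in evenness thus went with the pair. The limit partly sets this, as it removed an entry with 25356 TPM in normal catkins and 2689 TPM in the mutant. With the left-out candidates kept, the 10 most abundant held 33.5% of the summed TPM in the mutant and 45.1% in normal catkins.

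**Figure D3:**
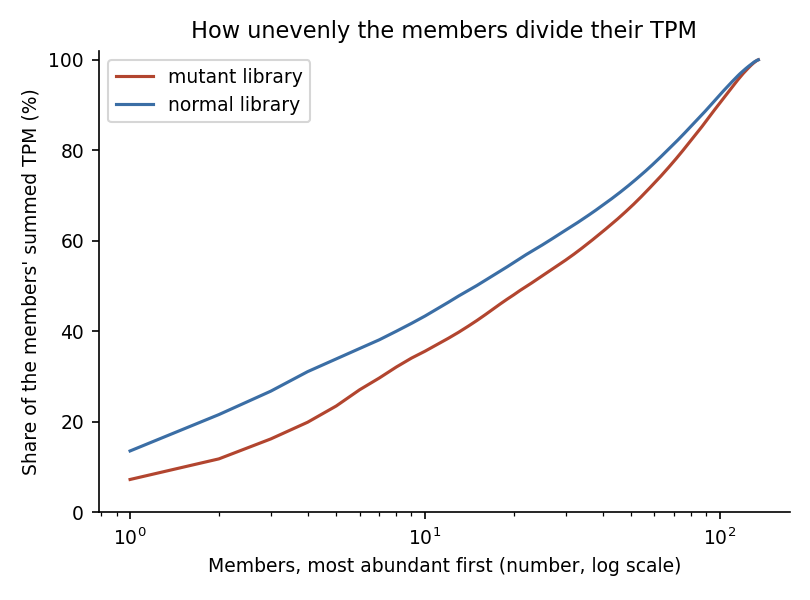
Share of the members' summed TPM (%, vertical axis) held by the given number of members, most abundant first (horizontal axis, log scale), 1 line per library. The mutant line lies below the normal line and reaches 50% at 23 members, against 15 in normal catkins.

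Most members differed by less than 2-fold. On TMM-scaled counts 12 of the 135 were higher in mutant catkins by 2-fold or more (8.89%), 33 were lower by 2-fold or more (24.4%), and 90 were in neither class. Over all 25994 entries with at least 20 counts in total, 22.5% were at least 2-fold higher and 15.3% at least 2-fold lower. The median log2 ratio was -0.31 over the members and 0.05 over all those entries. The members had at least 967 counts in mutant and 4009 in normal catkins, far above the minimum of 20. With a minimum of 1000 counts for the background, 10.1% of entries were at least 2-fold higher. The share lower at that minimum is not given here, so the 15.3% has no counterpart at a depth like the members'. With scaling to total counts, 18 members were higher and 26 lower, with 27.4% and 11.8% as the background; this scaling moves the median of all entries to 0.28 and that of the members to -0.083. The rule used this contrast, so nothing is read from these counts.

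The entries next in rank are given for comparison. Of the 1103 entries that ranked after the first 100 but within the first 1000 in their better library, 10.3% were at least 2-fold higher and 20.6% at least 2-fold lower in mutant catkins, with a median log2 ratio of -0.33. In these entries no limit on the ratio was applied. With total-count scaling these values were 14.5%, 15.0% and -0.11. The difference between these entries and the members could not be tested with 1 library per group.

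Members that were in the top 100 of both libraries numbered 51, and 41 of them were within 2-fold. Their median log2 ratio was -0.31, with 3 at least 2-fold higher and 7 at least 2-fold lower in mutant catkins. Over all entries with at least 20 counts, 22.5% were higher and 15.3% lower. The 51 members held 13.3% of the counts in mutant catkins and 19.5% in normal catkins, the pair included. Across these 51 entries log2 TPM in mutant and normal catkins had a Pearson r of 0.75, and TPM a Spearman rho of 0.64. Over all 135 members these values were 0.57 and 0.24. Both are descriptions of entries chosen for high TPM, and the 51 were high in both libraries by choice.

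A further 42 members were in the top 100 of mutant catkins alone, and 42 in that of normal catkins alone, which fixes much of their direction. The mutant-only members had a median of 987 TPM in the mutant and 619 TPM in normal catkins, with 9 at least 2-fold higher and 0 lower. The normal-only members had medians of 635 TPM in the mutant and 1067 TPM in normal catkins, with 0 at least 2-fold higher and 26 lower. Their median log2 ratios were 0.61 and -1.15. The normal-only members thus lay farther from equality than the mutant-only ones on this scale. With total-count scaling the medians were 0.83 and -0.93, and the distances from 0 were more alike.

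**Figure D4:**
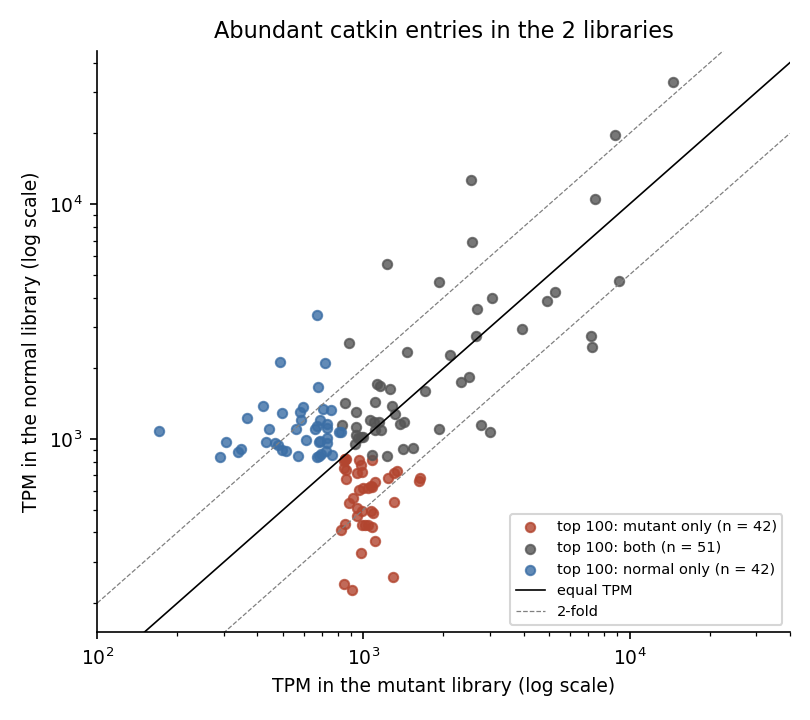
TPM of the 135 members in mutant catkins (horizontal) and the normal library (vertical), both on log scales, coloured by the library in whose top 100 they ranked, with lines of equal TPM and of 2-fold difference. Blue points, ranked in normal catkins only, lie above the line of equality and reach down to 170 TPM in mutant catkins; red points, ranked in mutant catkins only, lie below it and reach down to 228 TPM in normal catkins.

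The members farthest from equality are named by their identifiers. Entry c53865.graph_c0, of 1306 bases in normal catkins, had 1292 TPM in the mutant and 257 TPM in normal catkins and was 4.23-fold higher in mutant catkins (counting interval 4.11 to 4.36). Entry c55964.graph_c0, of 2574 bases, had 903 TPM in the mutant and 228 TPM in normal catkins and was 3.32-fold higher (3.25 to 3.40). Both ranked below 500 in normal catkins. Entry c31717.graph_c0, of 1624 bases, had 170 TPM in the mutant and 1078 TPM in normal catkins and was 7.58-fold lower in mutant catkins (7.33 to 7.85). Entry c51163.graph_c0, of 1597 bases in normal catkins, had 670 TPM in the mutant and 3384 TPM in normal catkins and was 6.44-fold lower (6.33 to 6.56). It ranked 151 in mutant catkins and 15 in normal catkins. No gene name or function is given for these identifiers in the files.

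The limits of the rule were crossed sharply in one direction and closely in the other. The highest unscaled ratio kept was 4.21 and the lowest left out above the limit was 11.1. Towards lower values, the most extreme member was 7.62-fold lower and the nearest left-out entry 8.93-fold lower. Of the 13 left out, 6 were higher and 7 lower in mutant catkins, and together they held 0.73% of the counts in mutant catkins and 2.12% in normal catkins. The most abundant of them, of 725 bases, ranked 13 in mutant catkins with 2689 TPM and second in normal catkins with 25356 TPM. By rank the limit was narrow, with 827 TPM at rank 100 and 826 TPM at the rank after it in mutant catkins, and 836 and 835 TPM in normal catkins.

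The rule used length only through TPM. The members' median length was 1186 bases, against 360 bases over all entries, 1118 bases over the entries with at least 20 counts and 1224 bases over the next in rank down to 1000. The lengths ran from 223 to 7592 bases. The longest member had 1108 TPM in the mutant and 1090 TPM in normal catkins and was 1.17-fold lower on scaled counts.

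Of the 10 members under 500 bases, 7 were at least 2-fold lower in mutant catkins and 0 at least 2-fold higher. Over all entries with at least 20 counts, of any length, 15.3% were lower and 22.5% higher by this measure. Of the 7 lower short members, the 3 of 414, 268 and 465 bases entered through the top 100 of normal catkins alone, which fixes them as lower. Of the 6 short members in the top 100 of both, 4 were at least 2-fold lower. The 8-fold limit had removed candidates of 341, 464 and 342 bases, with 1911, 1734 and 1645 TPM in mutant catkins. In normal catkins these had 0.91, 0.6 and 0.88 TPM, so the lack of higher short members is partly set by the limit. The median log2 ratio of the 10 members was -1.79, and -1.57 with total-count scaling. Together they had 15530 TPM in the mutant and 34460 TPM in normal catkins, which was 7.73% and 14.1% of the members' TPM. The 7 were between 2.92-fold and 6.34-fold lower. Beside those already given, entries of 265, 414, 268 and 465 bases had 882, 419, 365 and 305 TPM in mutant catkins, and 2556, 1381, 1223 and 972 TPM in normal catkins.

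The other 3 short members did not share this direction to the same degree. An entry of 466 bases had 2756 TPM in the mutant and 1141 TPM in normal catkins and was 1.99-fold higher (counting interval 1.94 to 2.05). An entry of 455 bases had 1637 TPM in the mutant and 679 TPM in normal catkins and was also 1.99-fold higher (1.92 to 2.07). With total-count scaling both were past 2-fold. The third, of 467 bases, had 2119 TPM in the mutant and 2280 TPM in normal catkins and was 1.30-fold lower.

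Longer members had medians closer to 0 and went in both directions. Their 2-fold counts stand beside 22.5% higher and 15.3% lower over all entries with at least 20 counts. For the 36 members between 500 and 1000 bases the median log2 ratio was -0.48, with 2 higher and 7 lower by 2-fold. It was -0.18 for the 74 members between 1000 and 2000 bases, with 6 higher and 16 lower, and -0.20 for the 15 longer ones, with 4 higher and 3 lower. With total-count scaling these medians were -0.26, 0.05 and 0.03. Among the entries next in rank down to 1000, the 60 under 500 bases had a median of -0.39, with 13.3% higher and 25% lower. The median there was -0.46 between 500 and 1000 bases, -0.31 between 1000 and 2000 bases and -0.02 for longer entries. By median, the short entries of those ranks were thus not the lowest class. By share at least 2-fold lower they were, at 25%, against 21.9%, 22.1% and 12.4% in the classes of rising length. How these ratios vary between catkins was not tested.

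**Figure D5:**
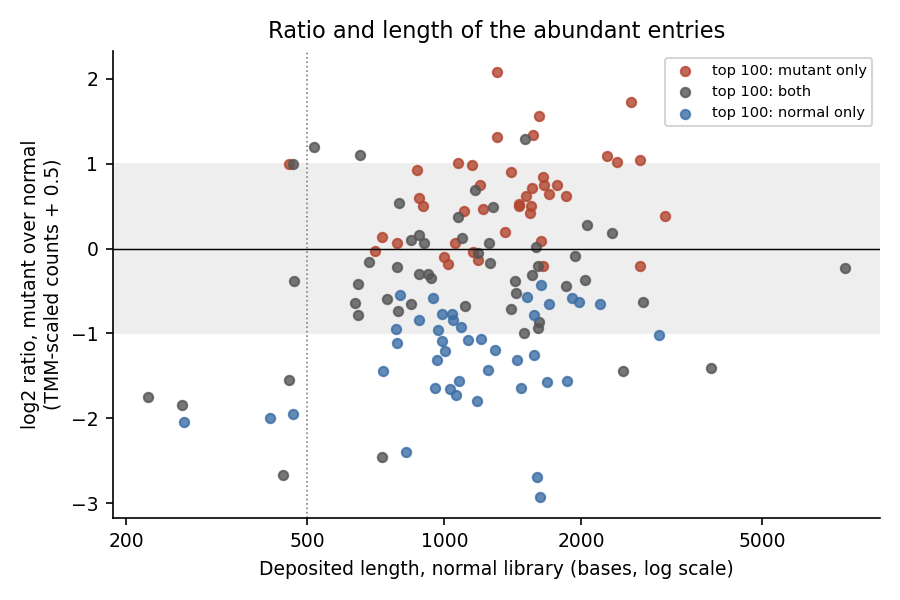
Log2 ratio of mutant over normal (TMM-scaled counts plus 0.5, vertical axis) against deposited length in normal catkins (bases, log scale) for the 135 members, with the band within 2-fold shaded and a dotted line at 500 bases. Left of the line, 7 of 10 points lie below the band, against 15.3% of all entries of any length with at least 20 counts. Candidates removed by the 8-fold limit are not drawn, among them those of 341, 464 and 342 bases, which were higher in mutant catkins.

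The number of transcripts was not used by the rule. Of the members, 92 have 1 transcript and 43 have 2 or more (31.9%), against 32.8% of the entries with at least 20 counts and 20.1% of those next in rank down to 1000. For entries with several transcripts the deposited length shifts when the libraries use them in different proportions, though a switch between transcripts of similar length leaves it unchanged. Of the 43, 34 kept their length within 5%. The largest shift, of 14.1%, was in an entry with 7 transcripts, of 851 bases in the mutant and 746 bases in normal catkins. At the other end, c51163.graph_c0 was 1503 bases in the mutant and 1597 bases in normal catkins. The 2-fold counts were 4 higher and 10 lower among the 43, and 8 higher and 23 lower among the 92. Over all entries with at least 20 counts, 22.5% were higher and 15.3% lower.

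Nearly all members had fractional counts. Expected counts were whole numbers, to the 2 decimals deposited, for 1 member in the mutant and 2 in normal catkins, against 14.6% and 15.0% of the entries next in rank down to 1000. RSEM gives a fraction where it assigns a read only in part to an entry, so the split between a member and any near-identical entry is uncertain. Apart from the pair, 26 members belong to a component with further entries, none of which is a member.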

How the data were processed

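RNA sequencing of 1 mutant and 1 normal catkin library was analysed. The tools named in the submitters' processing notes are HISAT, for alignment, and RSEM, for estimating transcript abundance. Their versions, settings and reference were not stated there. The authors deposited expected counts, TPM, FPKM (not used in any result), length and effective length per gene entry, per the file headers. The identifiers have no gene names or sequences in the files.

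Members were found by rank of TPM and by the unscaled ratio of expected counts plus 0.5. Counts were then rounded and scaled with TMM factors of 1.082 for the mutant and 0.924 for the normal library, from entries with at least 20 counts (edgeR 4.0.16, R 4.3.3). A member was counted as higher or lower at 2-fold, and no p-value was computed. Intervals are exact binomial or conditional at 95%, for counting error only. The calculation of the ratio was run on simulated Poisson counts with planted fold changes. Those hold no variation between libraries, so the run checks the calculation and not the ratios of unreplicated libraries. Total-count and median-of-ratios scaling (DESeq2 1.42.0), a pseudocount of 5, log2(TPM + 1) and other member rules were alternatives. The identifiers named are the 2 highest and 2 lowest ratios; the others are given by rank and length. Members, lists and classes were chosen with earlier results of these data known.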

Additional observations from a re-analysis of the deposited data

How the results depend on the processing

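The members' median log2 ratio was below 0 under all alternatives run: -0.083 with total-count scaling, -0.051 with log2(TPM + 1), -0.38 from the top 50, -0.20 when members were ranked by expected count and -0.33 with entries past 8-fold kept. With log2(TPM + 1), 20 of the 135 members were at least 2-fold higher and 25 at least 2-fold lower. These numbers were 6 and 20 of 64 from the top 50, and 17 and 51 of 241 from the top 200. Ranked by expected count, they were 21 and 31 of 135. On TMM-scaled counts, 22.5% of all entries with at least 20 counts were higher and 15.3% lower. No such share is given here for log2(TPM + 1). The share of all entries at least 2-fold higher was 41.9% with no filter on low counts and 10.1% with a minimum of 1000 counts. The members' share of counts in the mutant and the normal library was 14.4% and 21.0% from the top 50, 24.8% and 31.4% from the top 200, 21.4% and 27.2% by expected count, 20.6% and 28.4% with entries past 8-fold kept, 20.1% and 24.5% by TPM, and 14.8% and 14.7% without the pair, an alternative chosen after seeing the data. The 10 most abundant held 49.7% and 56.3%, 27.4% and 34.4%, 39.8% and 48.2%, and 33.5% and 45.1% of the members' TPM under the first 4 of these, and 30.3% and 31.7% without the pair. The median length was 1100.4, 1128, 1646 and 1162.5 bases under the same 4. Median-of-ratios scaling, a pseudocount of 5 and an 8-fold limit on scaled counts left the counts of members higher and lower at 12 and 33. No paired analysis was possible because mutant and normal had 1 library each, which also leaves no replicate to omit. Members had at least 967 counts in the mutant and 4009 in the normal library, so counting depth did not limit their ratios.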

Other observations

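The members' component numbers were crowded. Of the 1504 blocks of 100 consecutive numbers that the tables hold, 64 contained a member, and the 3 blocks with the most members held 37 of the 135 (27.4%) among 272 entries, which are 0.296% of all. The blocks start at 13600, 44700 and 56200 and held 10, 15 and 12 members. They also held 9 of the 13 abundant entries left out for a difference of 8-fold or more, all 9 in the block that starts at 56200. The entries of these blocks had median levels of 55.6, 73.2 and 99.2 TPM in the mutant library and 38.0, 70.8 and 80.2 TPM in the normal library, against 1.03 and 0.48 TPM over all entries. Of the 37 members, 2 were at least 2-fold higher and 9 at least 2-fold lower in the mutant library. Over all entries with at least 20 counts, 22.5% were higher and 15.3% lower. The median log2 ratio of the 37 was -0.37, against -0.26 for the other members. The blocks were picked after their counts of members were seen, and no test was made.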
